A study of Mus musculus with 13 samples.

Results

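C2C12 cells without MyoD, taken 48 h into differentiation, were set against unedited C2C12 myoblasts collected 24 h before differentiation began (-24 h). Both were profiled by chromatin immunoprecipitation and sequencing for acetylation of histone H3 at lysine 27 (H3K27ac). These are 2 of the 13 samples described, and peak lists of 12 libraries were analysed. The 2 libraries were chosen by their labels, not by their values. To give both lists the same size, the 55585 peaks of the knockout were compared with the 55585 strongest peaks at -24 h, and 1 shared base counted as overlap.

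C2C12 is a mouse myoblast line that proliferates in rich medium and fuses into myotubes when serum is withdrawn. MyoD, encoded by Myod1, is a transcription factor that binds muscle enhancers and switches on the muscle programme, and it is already made in growing myoblasts. H3K27ac marks active promoters and enhancers, so a list of H3K27ac peaks is a snapshot of the regulatory regions in use. The comparison with -24 h asks whether cells without MyoD hold the regions of the growing myoblast, those of later stages, or neither set in full.

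All libraries came from C2C12 cells, and all 12 carry the cell type label myoblast, including those taken after differentiation. Growth medium was DMEM with 10% fetal bovine serum, and differentiation medium was DMEM with 2% horse serum. The unedited cells were sampled at -24, 0, 6, 12, 24, 48 and 72 h relative to the change of medium. The Myod1 knockout and the 4 lines with deleted hotspots, as the submitters call these regions, were edited with CRISPR/Cas9 and sampled at 48 h. The H1 line lacked hotspot H1 and the H3 line lacked H3. In the H23 and H34 lines, H3 had been deleted in cells that already lacked H2 or H4. Whether a line was 1 clone was not given in the sources used here. The CRISPR control sample was not used here. The unedited library at 48 h, called wild type, served as the reference instead, and editing itself had no matched control. A list of histone peaks cannot show whether MyoD was absent. No annotation of the files' build was at hand, so markers of myoblasts and myotubes could not be checked and no gene is named from a position.

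With 1 library per condition, conditions could not be tested against each other, and every share is a description of single libraries. Its 95% Wilson interval covers counting error only, and neighbouring peaks are not independent. The knockout list held 55585 peaks over 18.3 Mb with a median width of 234 bp, the fewest and among the narrowest peaks of the 12 lists. The -24 h list held 74764 peaks, of which the strongest 74.3% were used. These covered 23.5 Mb, with a median width of 311 bp. Among the peaks used from the other lists, the median width ran from 276 bp at 24 h to 807 bp in the H23 line, and it was 520 bp in wild type at 48 h. A wide peak overlaps others more readily, so each main share is also given with every peak replaced by a 500 bp window around its midpoint. Read depth was unknown.

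The knockout did not resemble the growing myoblast more than it resembled later stages. Of its peaks, 32512 (58.5%, 58.1 to 58.9) overlapped a -24 h peak, against 32660 (58.8%) for 24 h and 32109 (57.8%) for 72 h. The remaining 41.5% had no -24 h peak. The shares for 0, 6 and 12 h were 64.3%, 65.3% and 68.2%, for wild type at 48 h 70.7%, and for the H1, H3, H23 and H34 lines 77.4%, 76.1%, 85.0% and 81.1%. These shares were higher for lists with wider peaks. With 500 bp windows they drew together, from 59.0% with the H23 line to 64.2% with 12 h, and the -24 h share was 61.1%. On that footing each of the other 11 lists held a similar share of the knockout peaks. The reverse share, of a list's windows that overlapped a knockout window, varied more. It was 63.6% for 24 h, 59.8% for -24 h, 51.6% for wild type and 49.0% for the H23 line.

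The Jaccard index, the bases covered by both lists over the bases covered by either, gave a similar picture. It was 0.334 between the knockout and -24 h, 0.337 with 0 h, 0.341 with both 6 and 12 h, 0.348 with 24 h and 0.327 with 72 h. It was lower with the 48 h libraries, at 0.295 for wild type and, for the H1, H3, H23 and H34 lines, 0.291, 0.297, 0.256 and 0.288, whose peaks covered 41.0 to 62.7 Mb. The library with the highest index was thus 24 h, and it stayed so at each of 7 list lengths from 5000 to 55585 peaks. With windows the index was 0.303 for 24 h, 0.284 for -24 h and 0.278 to 0.283 for the other time course libraries. It was 0.234 for wild type and 0.211 (H23) to 0.236 (H1) for the hotspot lines. The 48 h libraries were thus lower with equal widths as well. The excess of -24 h over 72 h was 0.00748 with deposited widths and 0.00267 with windows, and the excess over wild type at 48 h was 0.0397. At short lists the order of -24 h and 72 h turned. Their indices were 0.202 and 0.211 at 5000 peaks and 0.265 and 0.272 at 10000.

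By the same index the -24 h library was far closer to the other time course libraries than the knockout was to any. Its index fell along the time course, from 0.583 with 0 h through 0.550, 0.518 and 0.466 with 6, 12 and 24 h to 0.411 with 72 h. The knockout, at 0.334, lay beyond 72 h on that scale and level with wild type at 48 h, which also stood at 0.334. The highest index the knockout reached with any library, 0.348, was the lowest such maximum of the 12 libraries, the others lying between 0.486 and 0.633. The 48 h lists differ from the time course lists in file format, so the format and the 48 h time point cannot be told apart here.

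**Figure D1:**
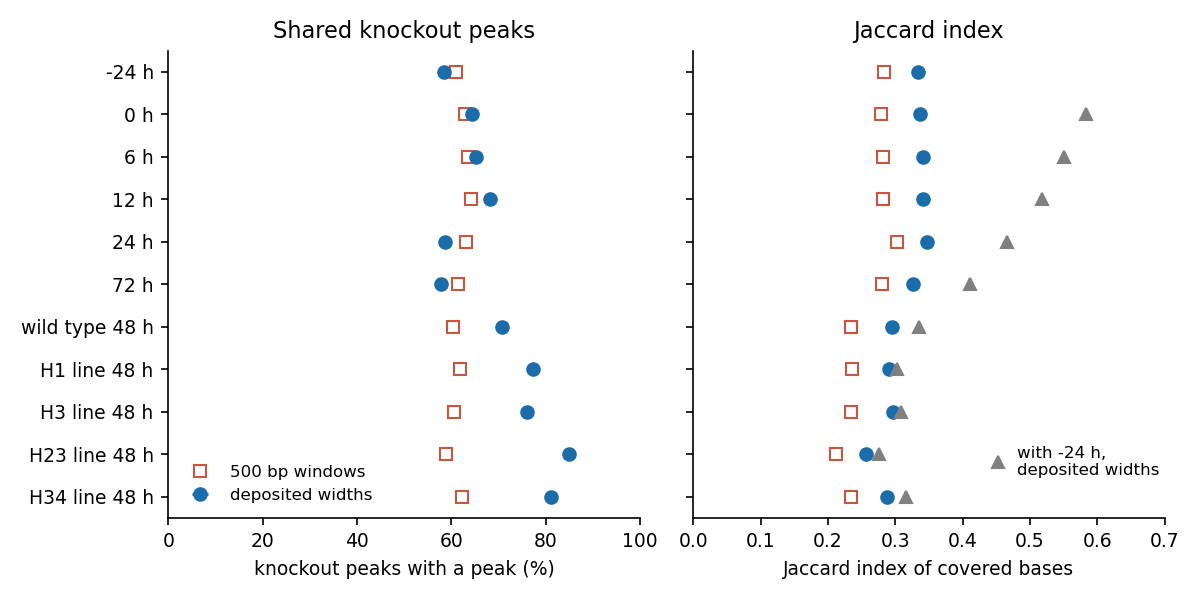
Left, percent of the 55585 knockout peaks that overlap a peak of each other library (filled circles, deposited widths, with bars for 95% Wilson intervals that are smaller than the symbols; open squares, 500 bp windows). Right, Jaccard index of each library with the knockout (circles and squares as on the left) and with -24 h (grey triangles). The open squares on the left lie between 59.0% and 64.2%, whereas the grey triangles fall from 0.583 at 0 h to 0.411 at 72 h.

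Each knockout peak was next placed by the stage it belongs to, using the -24, 24 and 72 h lists. Differentiation peaks outnumbered myoblast-stage peaks under this definition, and the order turned under another. Peaks with a -24 h peak and none at 24 and 72 h, called myoblast-stage, numbered 3235 (5.82%, 5.63 to 6.02). Peaks with a 24 or 72 h peak and none at -24 h numbered 7507 (13.5%, 13.2 to 13.8), of which 1665 were at 24 h alone, 2306 at 72 h alone and 3536 at both. The largest class, 24449 peaks (44.0%), was present at all 3 stages. A further 3010 peaks (5.42%) were shared with -24 and 24 h, 1818 (3.27%) with -24 and 72 h, and 15566 (28.0%) with none of the 3. With the earlier stage defined by -24 and 0 h and the later by 72 h alone, myoblast-stage peaks were 8.79% of knockout peaks and differentiation peaks 5.06%, so the classes changed places.

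The differentiation class spans 2 later libraries and the myoblast class 1 earlier one, so their sizes are best read against the other 48 h libraries, divided in the same way. Wild type at 48 h had 3743 myoblast-stage peaks (6.73%) and 7965 differentiation peaks (14.3%). The ratio of myoblast-stage to differentiation peaks was 0.431 in the knockout and 0.470 in wild type. Across the H1, H3, H23 and H34 lines it was 0.336, 0.453, 0.593 and 0.586. The knockout ratio was therefore below wild type, and both double deletions stood above it. The order of knockout and wild type was not stable. With myoblast-stage defined by -24 and 0 h against 72 h alone, the myoblast-stage share was 8.79% in the knockout and 8.47% in wild type. Among the 20000 strongest peaks, the differentiation share was 14.5% in the knockout and 14.2% in wild type.

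**Figure D2:**
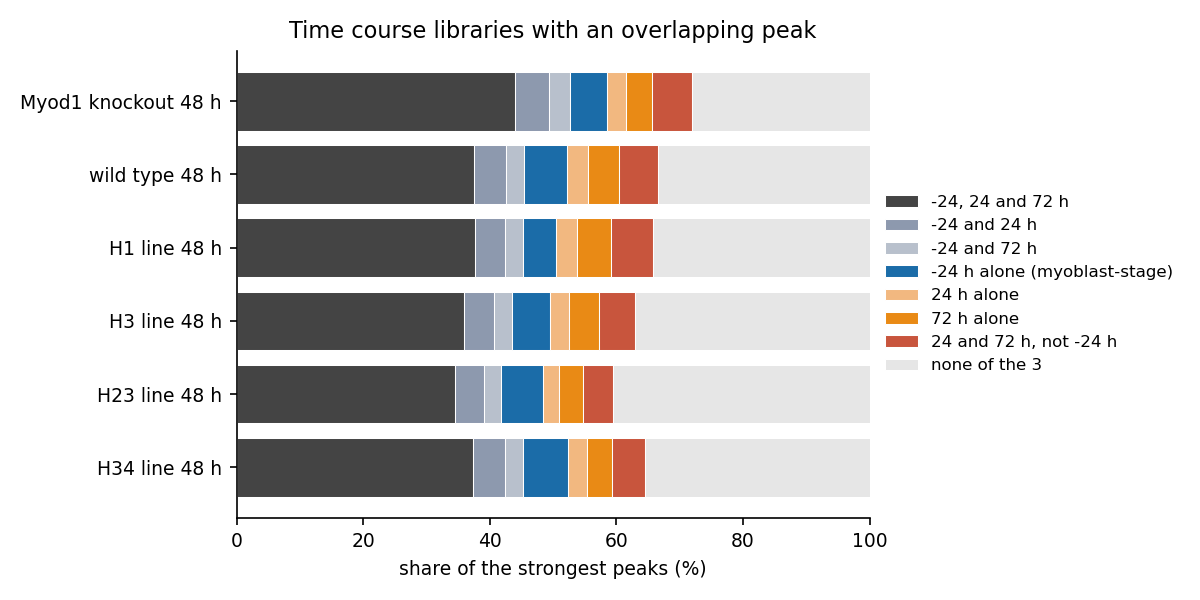
Percent of the 55585 strongest peaks of each 48 h library, divided by which of the -24, 24 and 72 h libraries hold an overlapping peak. The blue block, myoblast-stage peaks, is 5.82% in the knockout and 6.73% in wild type, and the 3 orange to red blocks, which together are the differentiation peaks, are 13.5% and 14.3%.

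Stage-specific knockout peaks were weak. The median −log10 p, the authors' value for each peak, was 7.24 for myoblast-stage peaks, for differentiation peaks and for peaks with none of the 3 stages, and 12.1 for the peaks present at all 3. Their median widths were 195, 206, 166 and 355 bp. Of the strongest decile of knockout peaks, 4749 were present at all 3 stages, 88 were myoblast-stage and 123 belonged to differentiation. The stage-specific peaks were thus mostly among the weaker calls. A knockout peak of the constant class lay within 12500 bp of 55.6% of the myoblast-stage peaks, 68.8% of the differentiation peaks and 41.9% of those with none of the 3. Over all knockout peaks the share was 74.0%, in which constant peaks count as near themselves.

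Wild type at 48 h had an overlapping peak at 2145 of the 3235 myoblast-stage knockout peaks (66.3%) and none at 1090 (33.7%). Over all knockout peaks the share with a wild-type peak was 70.7%. At 0 h 68.7% had a peak, and 41.9% had one at 0, 6 and 12 h alike, the times before 24 h. The reverse comparison was larger. Wild type had 2391 myoblast-stage peaks without a knockout peak, and with windows the counts were 2423 in wild type and 1334 in the knockout. Myoblast-stage peaks found in wild type and not in the knockout thus outnumbered the opposite case with both widths. An asymmetry in the same direction held over all peaks. Of all wild-type peaks 50.4% had a knockout peak, whereas 70.7% of all knockout peaks had a wild-type peak. With windows these shares were 51.6% and 60.5%.

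The strictest set of retained regions asked for no peak at 24 h, 72 h or in wild type at 48 h anywhere in the full lists, weak peaks included. This set was defined after values were seen. It held 637 of the 3235 myoblast-stage peaks (19.7%), with a median −log10 p of 7.24, a highest value of 31.0 and 7 members in the strongest decile. Outside the libraries used to define it, 78.6% had a peak at 0 h, 67.8% at 6 h and 78.0% at 12 h. In the full lists the shares over all knockout peaks were 71.7%, 71.8% and 77.3%. In the full lists of the hotspot lines the shares were 67.5% (H1), 64.1% (H3), 89.8% (H23) and 83.2% (H34). Over all knockout peaks they were higher in every line, at 88.1%, 82.9%, 91.4% and 89.9%. All 4 hotspot lines held 300 of the 637, and 20 were in none of them. The full hotspot lists are the longest of the 12, and reach lower −log10 p values.

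Single regions of these sets follow. Coordinates are in the mouse build mm9 and counted from 1. The strongest myoblast-stage knockout peak lay at chr11:87275299-87275787, with a −log10 p of 58.0, rank 81 in the knockout. It ranked 36643 at -24 h, was in no list from 0 to 72 h, and was in all 5 other 48 h lists, ranking 15 in wild type. The next 4 lay at chr2:172825658-172826191, chr4:81088249-81088717, chr4:133523376-133523837 and chr11:48787197-48788251, and all of them also had wild-type peaks at 48 h. The strongest myoblast-stage peaks by p were thus regions that every 48 h library carried. The peaks at chr2:172825658-172826191, chr4:81088249-81088717 and chr4:133523376-133523837 were also in the 0, 6 and 12 h lists. The last of these also had a 24 h peak in the full list, with a score of 7.04. That is the value at which the 24 h list ended at 55585 peaks, and 1158 of the 10853 peaks with that score were used.

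The retained set lacked wild-type peaks at 48 h by its definition. Its strongest members were chosen after values were seen, and they lay at chr4:134408319-134409176, chr19:54019379-54019703, chr15:75899946-75900146, chr8:112229549-112229900 and chr8:63369239-63369568. The first had a −log10 p of 31.0 and ranked 1122 in the knockout, with peaks at 6 and 12 h. All 5 were in all 4 hotspot lines, as were 300 of the 637 members of the set. All 5 had a 12 h peak, as had 78.0% of the set and, in the full list, 77.3% of all knockout peaks.

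Of the 7507 knockout peaks of the differentiation class, 5240 (69.8%) had a wild-type peak at 48 h, close to the 70.7% of all knockout peaks. At 0 h 50.2% already had a peak, and 27.8% had none at -24 and 0 h even in the full lists, so only a minority marked regions absent from proliferating and confluent cells alike. The clearest cases, with 24 and 72 h peaks and none at -24 and 0 h, numbered 1263, and 941 of them were in wild type at 48 h. The knockout library thus carried H3K27ac peaks at regions first called after the change of medium.

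The 5 strongest of these 1263 lay at chr11:3025268-3026109, chrX:166438528-166438741, chr11:3027813-3028924, chr15:84804802-84806133 and chr7:149667470-149667839. All 5 were in the 12 h list and in all 5 other 48 h lists. The first ranked 81 in the knockout, 22843 at 24 h, 16410 at 72 h and 2650 in wild type at 48 h. The peak on chromosome 15 had a 0 h peak in the full list, ranked 79559, below the 55585 used.

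The peaks with none of the 3 stages made up the second largest class. Of these 15566, 20.6% had a peak at 0, 6 or 12 h and 36.5% had one in wild type at 48 h. The hotspot lines held 44.9% (H1), 45.5% (H3), 62.6% (H23) and 53.1% (H34) of them. All knockout peaks, too, had a peak more often in the hotspot lines, at 77.4%, 76.1%, 85.0% and 81.1%, than in wild type, at 70.7%. With windows the hotspot lines held 34.7%, 35.3%, 40.7% and 39.4% of the peaks with none of the 3 stages and wild type 31.2%, whereas over all knockout peaks they held 61.8%, 60.5%, 59.0% and 62.4% and wild type 60.5%. In the full lists, 6304 knockout peaks (11.3%) overlapped no peak of the time course or of wild type, and 1989 (3.58%) overlapped none of the other 11 lists. The strongest of the 1989 lay at chr4:35563930-35564103, with a −log10 p of 24.8 and rank 2477, followed by chr7:10870313-10870490, chr3:158651162-158651328, chr10:11211866-11212040 and chr13:33410227-33410367. Their median −log10 p was 6.13.

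The comparison was then turned round, to ask which myoblast peaks the knockout lacked. Of the 55585 peaks at -24 h, 30379 (54.7%, 54.2 to 55.1) had a knockout peak and 25206 (45.3%) had none. Wild type at 48 h lacked 16777 (30.2%). Peaks missing in the knockout had a median -24 h score of 10.9, against 19.6 for those kept, and median widths of 228 and 411 bp. A knockout peak lay within 1 kb of 39.8% of the missing peaks and within 5 kb of 57.7%, and 14.4% had none within 50 kb. By the median score missing peaks were thus weaker than kept ones. Many of them lay near a knockout peak, and 3620 lay more than 50 kb from any.

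The missing peaks fell into nearly equal groups by what wild-type cells did. Wild type at 48 h had a peak at 12123 (48.1%) of the 25206 and lacked the other 13083. Of those wild type had, 39.9% were present at both 24 and 72 h and 34.1% at neither, and 43.7% were in all 4 hotspot lines. Over all -24 h peaks these shares were 53.4%, 28.0% and 57.9%. Of those wild type also lacked, 16.2% were present at both 24 and 72 h and 63.2% at neither, and 6546 were in no hotspot line. Both groups thus held a smaller share of peaks present at 24 and 72 h than the -24 h list as a whole, and the share was lowest in the group missing in both.

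Peaks kept by the knockout and lost in wild type numbered 3694, and 26685 were in both. The ratio of peaks kept only by the knockout to peaks kept only by wild type was 0.305 (0.294 to 0.316). In place of the knockout, the H1, H3, H23 and H34 lines gave 1.03, 0.951, 1.98 and 1.73. This contrast did not hold with equal widths. With 500 bp windows the knockout ratio was 0.973, the -24 h peaks kept were 59.8% in the knockout and 60.3% in wild type, and the hotspot lines kept 57.2% (H1), 56.2% (H3), 55.0% (H23) and 59.4% (H34). The 72 h library kept 64.6%, the 24 h library 69.6% and the 0 h library 80.4%. With either width, then, the knockout kept no larger a share of the -24 h peaks than wild type. Of the 3694, 45.7% were present at both 24 and 72 h and 56.2% in all 4 hotspot lines, and 27.8% were at neither 24 nor 72 h.

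Strength at -24 h went with presence in the knockout. Only 26.1% of the weakest decile of -24 h peaks had a knockout peak, and the share rose in each decile to 93.8% of the strongest. Wild type at 48 h rose from 42.9% to 97.1% and the 72 h library from 31.1% to 96.7% over the same deciles. The knockout was below wild type in every decile, with a difference of -16.7 points in the weakest. Windows of 500 bp keep only the middle of a wide peak. With them the difference was -4.89 points in the weakest decile (37.2% against 42.0%) and 12.9 in the strongest (90.9% against 78.0%). The rise with strength was present with both widths, and the order of knockout and wild type among strong peaks was not. Read from the knockout side, the share of knockout peaks with a -24 h peak rose from 32.7% to 91.3%, and that with a 72 h peak from 34.2% to 89.0%. Neither stage was the better match at every strength, since 72 h led in the 4 weakest deciles and -24 h in the 6 strongest. With windows 72 h led in decile 6 as well.

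**Figure D3:**
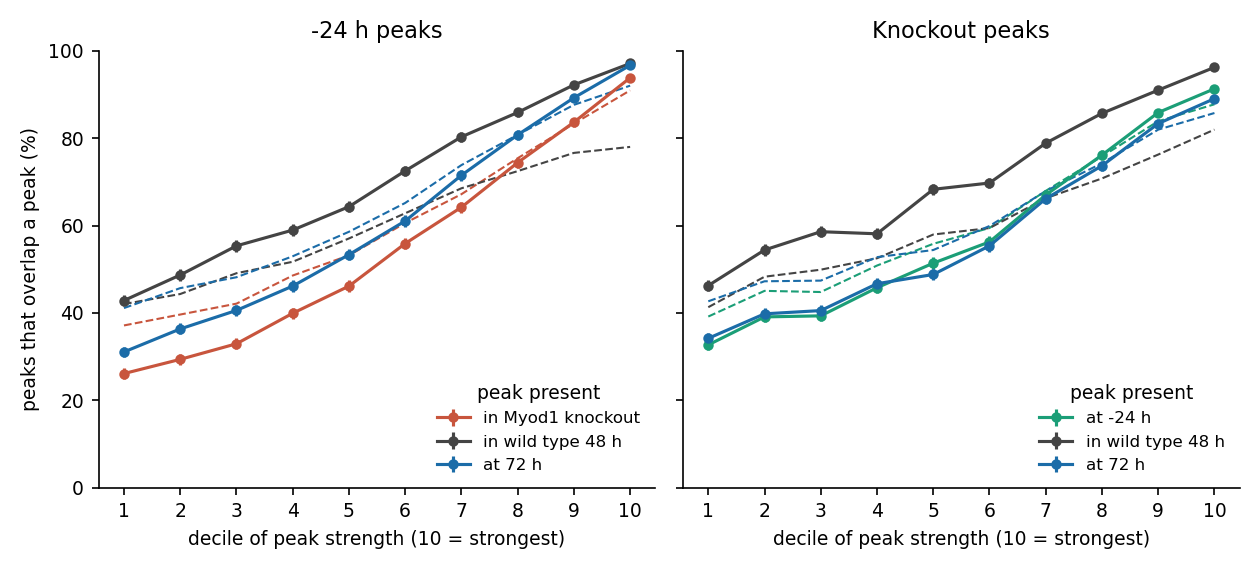
Left, percent of -24 h peaks with a peak in the knockout, in wild type at 48 h or at 72 h, by decile of the -24 h score. Right, percent of knockout peaks with a peak at -24 h, in wild type at 48 h or at 72 h, by decile of the knockout −log10 p. Solid lines use deposited widths, with 95% Wilson intervals mostly smaller than the symbols, and dashed lines of the same colours use 500 bp windows. The solid knockout line on the left runs from 26.1% to 93.8%, below both others in every decile, and the dashed one rises above dashed wild type in the 3 strongest deciles.

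Some strong myoblast peaks were absent from the knockout list. The strongest -24 h peak missing in the knockout and present in wild type lay at chr8:86716664-86717059, with a score of 118.82 and rank 166 at -24 h. It was in every other list, ranking 581 in wild type at 48 h. The next lay at chr8:97543998-97545343, chr1:90430067-90430728, chr8:97536765-97537979 and chr13:110032801-110033512, with -24 h ranks of 182, 192, 246 and 296. The first 3 of these were also in every list except the knockout, and the peak on chromosome 13 was absent from the H3 and H23 lines too. Among peaks missing in both the knockout and wild type, the strongest lay at chr8:97437256-97438145, with a score of 91.88 and rank 485. It was in all 6 time course lists and in no 48 h list. The others were chr8:90017989-90018621, chr4:151851836-151852246, chr9:57472508-57474754 and chr8:87307473-87309254. The peak on chromosome 9 was in all 4 hotspot lines, and the last was in H1, H3 and H34. Several of the named peaks in both groups lay on chromosome 8, from 86716664 to 97545343, and neighbouring peaks are not independent.

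Regions were then classed from the time course alone, before any 48 h library was asked. Merging the -24, 0, 24 and 72 h peaks gave 80686 regions, of which 42.1% had a knockout peak and 58.5% a wild-type peak at 48 h. Early-lost regions had -24 and 0 h peaks but lacked 24 and 72 h peaks, and late-gained regions had the reverse. The knockout was below wild type in both. Of 6096 early-lost regions, 1749 (28.7%) had a knockout peak and 49.5% a wild-type peak, a difference of -20.8 percentage points. Of 3562 late-gained regions, 1066 (29.9%) had a knockout peak and 55.2% a wild-type peak, a difference of -25.3. Of 24373 stable regions the shares were 81.0% and 89.6%. Both stage-specific shares of the knockout were below its 42.1% over all regions, and both of wild type were below 58.5%.

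The hotspot lines marked the early-lost regions at 40.7% (H1), 47.0% (H3), 60.7% (H23) and 55.8% (H34), and the late-gained regions at 67.7%, 52.4%, 51.3% and 50.4%. The knockout was the lowest of the 6 libraries in both classes. With 500 bp windows, 30.6% of early-lost regions had a knockout peak and 45.2% a wild-type peak, and the hotspot lines ranged from 34.2% to 46.9%. Late-gained regions had a knockout peak at 37.3% and a wild-type peak at 49.8%, and the hotspot lines ranged from 37.0% in H23 to 54.4% in H1. Stable regions were at 82.1% and 83.3%. With equal widths the knockout and wild type were thus near each other on stable regions and apart on both stage-specific classes, and H23 was as low as the knockout on late-gained regions.

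Presence in the knockout went with presence in wild type in both classes. Of early-lost regions with a wild-type peak at 48 h, 40.4% had a knockout peak, against 17.2% of those without. For late-gained regions the shares were 40.9% and 16.4%.

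Finer stages gave the same order. Over all 6 time course libraries there were 82291 regions, 40.0% of them with a knockout peak and 56.0% with a wild-type peak at 48 h. Regions with a peak at -24 h only had a knockout peak at 8.62% and a wild-type peak at 24.4%. For regions found only at 0, 6, 12, 24 or 72 h, the knockout shares were 10.5%, 12.0%, 16.6%, 13.1% and 10.6%, and wild type had 28.4%, 33.7%, 34.8% and 27.3% at 0, 6, 24 and 72 h and 1040 of the 3857 regions at 12 h. The knockout share was lowest for regions found only in growing myoblasts and highest for those found only at 12 h.

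Regions marked for longer were found more often in the knockout. For regions with peaks from -24 h up to 0, 6, 12 or 24 h and none later, the knockout shares were 12.8%, 24.9%, 39.9% and 55.4%, against 35.1%, 57.2%, 57.2% and 72.2% in wild type. For regions that gained a peak at 0, 6, 12 or 24 h and kept it to 72 h, they were 51.9%, 43.3%, 27.8% and 20.2%, against 71.2%, 64.7%, 51.8% and 49.0%. Loss late in the course and gain early in it thus both went with presence in the knockout. Regions present at all 6 times had a knockout peak at 82.9% and a wild-type peak at 90.8%. Regions marked for longer are also wider, with a median of 153 bp for regions at -24 h only and 692 bp for those present from 0 to 72 h, so these shares were also taken with 500 bp windows. The knockout share was then 13.3% for regions at -24 h only, 56.9% for those kept up to 24 h and 83.7% for those at all 6 times, against 22.7%, 68.9% and 86.1% in wild type, and it stayed below wild type at every stage listed here.

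**Figure D4:**
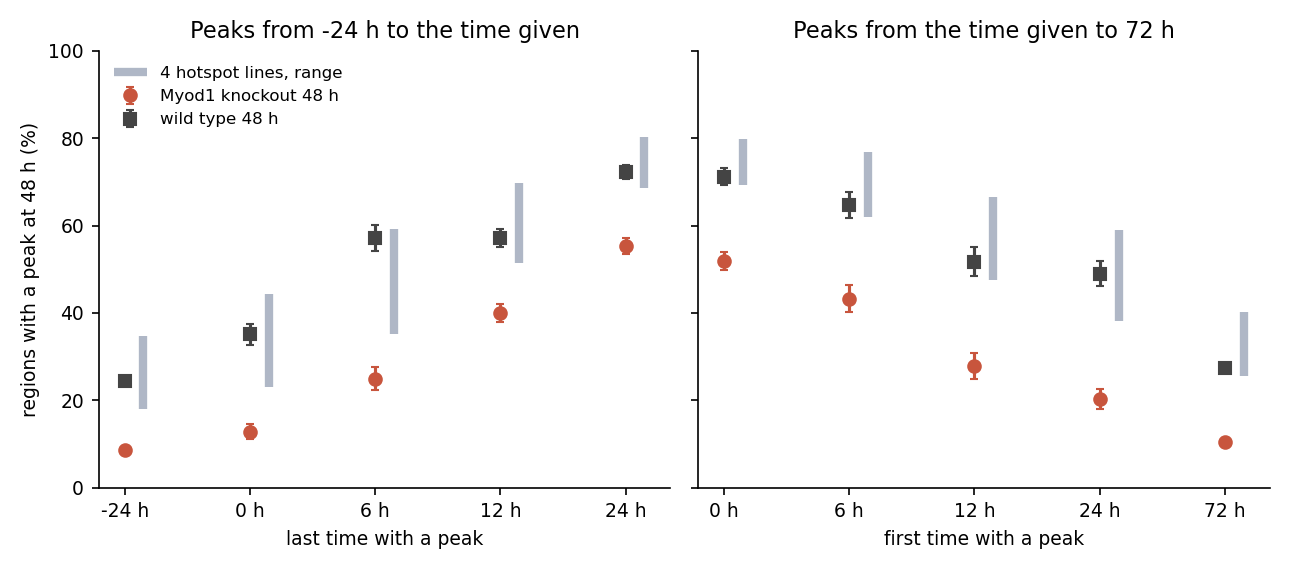
Percent of time course regions with a peak in the Myod1 knockout (red circles), in wild type at 48 h (black squares) and in the 4 hotspot lines (grey bars, lowest to highest). Left, regions with peaks from -24 h until the time given and none later. Right, regions without peaks before the time given and with peaks from it to 72 h. Bars on the points are 95% Wilson intervals, and the knockout lies below wild type at every stage drawn, from 8.62% against 24.4% for regions at -24 h only.

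The strength order of shared regions was also compared. Over 13698 regions with a peak in all 12 libraries, Spearman's rho of the knockout strength with the other libraries was 0.429 for -24 h, 0.436, 0.452, 0.473, 0.430 and 0.429 for 0, 6, 12, 24 and 72 h, and 0.337 for wild type at 48 h. It was 0.601, 0.591, 0.612 and 0.579 for the H1, H3, H23 and H34 lines. The strengths of the knockout thus ordered its shared regions most like those of the other edited lines and least like wild type, with no stage of the time course standing out. This correlation is across regions, which are not independent, and it is a description without a test. The 48 h lists, wild type among them, were ranked by −log10 p and the time course lists by score. Why the edited lines and wild type differed here was not tested.

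Peaks gather into domains, and the largest acetylated domains, often called super-enhancers, tend to lie near genes of cell identity. Peaks within 12500 bp were joined and ranked by summed width times strength. A domain was large if it ranked above the point where that curve reaches a slope of 1. Of 788 large domains at -24 h, 377 (47.8%, 44.4 to 51.3) overlapped a large knockout domain and 381 (48.4%) a large domain of wild type at 48 h. The counts were 262 in both, 115 in the knockout only, 119 in wild type only and 292 in neither. This near-equality depended on how domains were built. Joining within 5 kb left 348 of 880 (39.5%) in the knockout and 421 (47.8%) in wild type. Ranking by width alone gave 53.5% and 51.8% at 12500 bp, and 521 of 1180 (44.2%) against 728 (61.7%) at 5 kb. The number of large domains differed as well. The knockout and wild type had 683 and 761 in the main setting, and 703 and 1026 joined within 5 kb. Ranked by width they had 867 and 875 at 12500 bp, and 875 and 1491 at 5 kb. The part of these numbers in the shares was not tested.

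Large domains lost with differentiation were seldom large in the knockout. Of 234 large -24 h domains that were not large at 24 or 72 h, 27 (11.5%) were large in the knockout and 52 (22.2%) in wild type. Of 438 that were large at 24 and 72 h, 297 (67.8%) were large in the knockout. Conversely, of the 683 large knockout domains, 54.9% overlapped a large domain of the -24 h library. The shares were 60.8%, 66.0% and 55.3% for 0, 24 and 72 h and 57.5% for wild type. The best match depended on the setting. Ranking by width alone gave 69.4% for 0 h, 64.0% for -24 h and 62.4% for 24 h. Joining within 5 kb gave 61.2% for wild type, 53.5% for 0 h, 51.9% for 24 h and 49.6% for -24 h, and ranking those by width gave 74.4%, 62.1%, 61.4% and 59.5%. Under none of these settings was -24 h the best match. In each setting the best match was also the library with the most large domains of those compared. It had 794 (24 h) in the main setting, 1167 (0 h) by width at 12500 bp, and 1026 and 1491 (wild type) at 5 kb. The part of these numbers in the order was not tested.

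The top-ranked -24 h domain, at chr3:107498107-107667457, held 115 peaks at -24 h, 93 at 72 h, 50 in wild type at 48 h and 35 in the knockout, where it was not large. Among the 788, 11 had no knockout peak at all. The highest-ranked was at chr6:129164604-129188377, with 16 peaks at -24 h, 11 in wild type at 48 h and 15 to 19 in the hotspot lines. The next, at chr8:90013115-90038853, held 32 peaks at -24 h, 6 in wild type and 3 in the H1 line, and the lines without H3 had none. The others named by rank, at chr1:95056818-95082531, chr3:102158969-102179259 and chr8:81238197-81267205, had 17, 20 and 13 peaks at -24 h and 4, 7 and 1 in wild type. Among those named, the domains at chr6:129164604-129188377 and chr3:102158969-102179259 were thus empty in the knockout alone among the 12 libraries. The latter held only 2 peaks in the H3 line. The other named domains without a knockout peak had none in at least 1 hotspot line either.

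Missing peaks came in runs along the chromosomes. There were 280 runs of 10 or more consecutive -24 h peaks without a knockout peak, holding 3902 peaks, against 64 runs with 772 peaks for wild type at 48 h. As 500 bp windows, the knockout peaks left 257 such runs with 3579 peaks and those of wild type 90 with 1092. The longest run was 38 peaks for the knockout and 19 for wild type with both widths. Both runs of 38 lay at chr8:89417028-90226428 and chr14:46310520-47380785, and a run of 37 spanned 134 kb of chromosome 18. Wild type at 48 h had a peak at 13 of the first 38 and at 28 of the second.

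The reverse runs, of knockout peaks without a -24 h peak, numbered 240 with 10 or more peaks and held 3826 peaks. The longest had 68 peaks at chrX:91969963-92173928. None of the 68 was in a time course list and 2 were in wild type at 48 h, but the H1, H3, H23 and H34 lines held 42, 47, 23 and 57 of them. The second longest had 54 peaks at chr6:114402749-114584552, of which 9 were in wild type and 12 (H3) to 30 (H1 and H34) in the hotspot lines. The next, of 47 peaks, lay at chr3:90933601-92085198, with 17 in wild type and 32 (H1), 8 (H3), 9 (H23) and 28 (H34) in the hotspot lines. Most peaks of the stretch on chromosome X were thus in H1, H3 and H34, fewer in H23 and hardly any in wild type. On chromosome 3, by contrast, wild type held more of the peaks than H3 and H23.

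Chromosomes differed in how much of the myoblast state the knockout held. The share of -24 h peaks with a knockout peak ran from 43.5% on chromosome 14 and 43.9% on chromosome 6 to 64.0% on both chromosomes 5 and 19. In wild type at 48 h it ran from 59.2% on chromosome 9 to 75.1% on chromosome 15. The knockout minus wild-type difference was -27.1 percentage points on chromosome 3 and -6.42 on chromosome 5. The number of knockout peaks per -24 h peak moved with it, from 0.741 on chromosome 14 to 1.28 on chromosome 15, and its part in the shares was not tested. With 500 bp windows the knockout share still ran from 48.9% on chromosome 14 to 69.1% on chromosome 5, but the knockout was below wild type on 11 of the 20 chromosomes only. The difference was then -10.6 points on chromosome 10, -9.85 on chromosome 3 and 8.28 on chromosome 5. With deposited widths, the span from the lowest to the highest chromosome was 20.6 points in the knockout, 15.9 in wild type and 18.2 (H3) to 35.9 (H34) in the hotspot lines, and 8.97 to 17.7 among the other time course libraries.

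**Figure D5:**
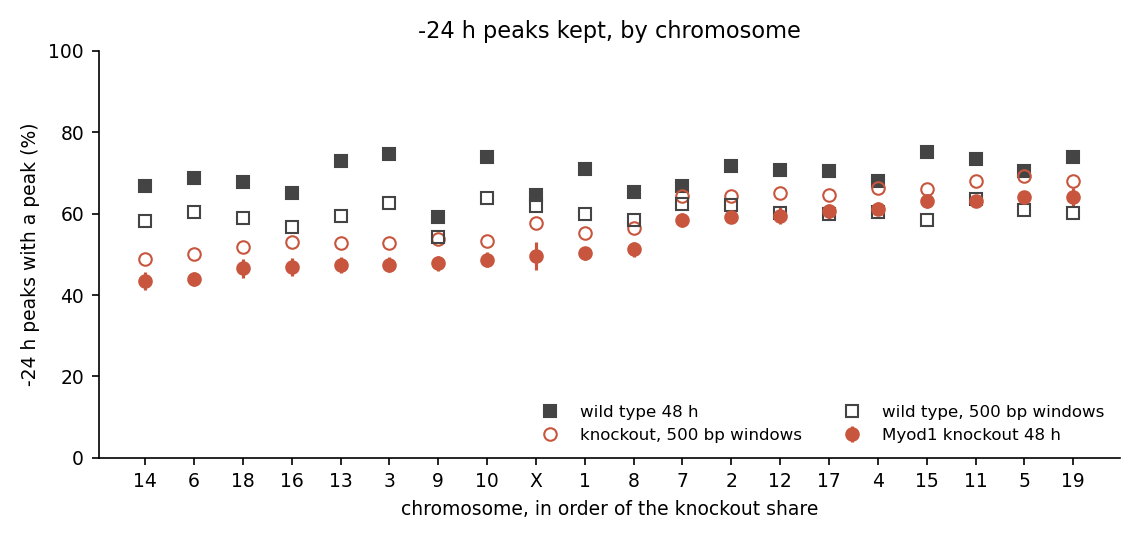
Percent of -24 h peaks with a peak in the Myod1 knockout (circles) and in wild type at 48 h (squares), by chromosome in order of the knockout share. Filled symbols use deposited widths, with 95% Wilson intervals for the knockout, and open symbols 500 bp windows. With deposited widths the knockout is below wild type on all 20 chromosomes, by most on chromosome 3 (47.5% and 74.6%), and with windows on 11 of them.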

How the data were processed

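H3K27ac peak lists of 12 libraries of C2C12 cells were used as the authors deposited them. Per the submitters' processing notes, the tool was MACS2 2.1.0 and the build mm9. How reads were aligned and filtered, and which cutoffs applied, is not given in the sources used here. The 5 columns deposited for each time course library end in a score with no stated unit. At 48 h, 10 columns were deposited, among them the authors' fold enrichment and −log10 p-value for each peak. Both kinds of value ranked peaks within a list and were not compared in size between lists.

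Each list was reduced to its 55585 strongest peaks by score or −log10 p, with ties taken by width and then position, and overlap needed 1 base. Domains, presence "in the full lists" and the presence of named regions and of run members in other libraries used all peaks. Intervals are 95% Wilson intervals. For domains, the strength was the score at -24 h and the fold at 48 h. Alternatives were all peaks, the 20000 strongest peaks, overlap of 50% of the shorter peak, 500 bp windows, other times to define stages, and other domain settings. Regions named are the 5 strongest of each class on assembled chromosomes and the 3 longest runs of each kind. The members and lists were chosen with earlier results of these data known. Gene positions in the available table are on GRCm38 and were not used, so the planned gene lists were not run. In a test on 20000 simulated regions, 6 of 6 quantities were recovered. The work used matplotlib 3.10.9, pandas 2.3.3 and numpy 2.4.6 under Python 3.11.15.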

Additional observations from a re-analysis of the deposited data

How the results depend on the processing

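Of 48 alternative values over 15 results, 3 stayed within the counting interval (for a count, within 1.5 times) of the value reported. The other 45 moved beyond it and none changed sign. Outside these 48, the Jaccard excess of -24 h over 72 h turned at shorter lists. The indices were 0.202 and 0.211 at 5000 peaks and 0.265 and 0.272 at 10000. Most of the 15 results are shares, counts or ratios, which have no sign to change. The strength profile was entered by its weakest decile only. In the strongest decile the knockout was below wild type with deposited widths and 12.9 points above it with windows. Each library stood alone, so none could be left out. No paired analysis was possible because each condition had 1 library. Against the values reported, in the order all peaks, 20000 strongest peaks, 50% overlap and 500 bp windows, the share of knockout peaks with a -24 h peak was 64.1%, 58.9%, 54.9% and 61.1%, and that of -24 h peaks with a knockout peak was 45.9%, 56.9%, 51.2% and 59.8%. In the same order the missing -24 h peaks with a wild-type peak were 47.4%, 50.6%, 45.1% and 41.5%, the ratio of peaks kept by one side only was 0.198, 0.513, 0.317 and 0.973, and myoblast-stage knockout peaks were 5.13%, 6.72%, 6.13% and 5.52%. Differentiation peaks were 12.6%, 14.5% and 15.8% with all peaks, 20000 peaks and windows. With -24 and 0 h set against 72 h, myoblast-stage and differentiation peaks were 8.79% and 5.06%, which turns their order. For all peaks, 20000 peaks, windows and 40000 peaks, the last chosen after seeing the data, the Jaccard excess of -24 h over 72 h was 0.00367, 0.00150, 0.00267 and 0.00763, and that over wild type was 0.0428, 0.0589, 0.0495 and 0.0492. For all peaks, 20000 peaks and windows, the knockout minus wild-type difference was -25.8, -13.3 and -14.6 points on early-lost regions and -33.0, -21.7 and -12.5 on late-gained ones, which gave -19.5 with -24 and 0 h against 72 h. Large domains shared were 53.5% ranked by width and 39.5% joined within 5 kb. With 500 bp windows, a choice made after seeing the data for these 4 results, the knockout minus wild-type difference was -4.89 points in the weakest decile of -24 h peaks and -9.44 on regions at -24 h only, 11 chromosomes had the knockout below wild type, and runs numbered 257. The 50% overlap was not run for Jaccard indices and merged regions. The cause of these shifts was not tested. The list lengths, widths and formats differ between libraries, depth is unknown, and a peak absent from a list may have lain under its cutoff.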
